A study of Homo sapiens with 36 samples.

Results

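The 10 genes described here encode 8 Frizzled receptors, FZD1 to FZD8, and the co-receptors LRP5 and LRP6. They were followed in 2 human cell lines exposed to copper sulfate. The genes were taken by name, through every array probe annotated to them, and together they carry 13 probes. All 10 are among the 14678 genes that passed the detection filter, out of 19782 genes with a named probe. FZD2 was chosen by its large late fall in BEAS-2B, so its BEAS-2B values, and the line differences that contain them, are given as a description without a test. The other 9 genes belong to the same receptor family, and counts in BEAS-2B are over those 9.

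RNA was measured on 36 Illumina bead arrays, 18 for each line. BEAS-2B is an immortalized line from human bronchial epithelium and received 800 µM CuSO4 in DMEM, and HCT116 is a colon cancer line with an activating mutation in the β-catenin gene and received 1400 µM CuSO4 in DMEM. Each line had 10 copper arrays, 2 each at 2, 4, 6, 12 and 18 h, and 8 untreated arrays, 2 each at 0 and 6 h and 1 each at 2, 4, 12 and 18 h. The doses differ, so line and dose cannot be told apart, and the labels do not say whether replicate arrays came from separate cultures, so p-values measure the spread between arrays, which may be technical. Markers were counted only when detected on all 8 untreated arrays of a line, so one seen on fewer arrays is not counted. By this count BEAS-2B had 6 of 8 mesenchymal markers, among them VIM, FN1 and CDH2. It had 0 of the 4 airway basal and 0 of the 6 secretory and ciliated markers with a probe. HCT116 had 3 of 8 colon epithelial markers (CDX2, EPCAM and CDH1) by the same count. EPCAM and the leukocyte marker CD14 were also detected on all untreated BEAS-2B arrays. VIM and the airway basal marker KRT15 were also detected on all untreated HCT116 arrays. A probe is called detected on an array when its deposited detection p is below 0.01.

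Wnt proteins bind the extracellular cysteine-rich domain of Frizzled, a receptor with a membrane-spanning core like that of G-protein-coupled receptors, and LRP5 or LRP6 at the same time. The assembled complex recruits Dishevelled and Axin, which keeps β-catenin from being destroyed, so that it enters the nucleus and acts with TCF/LEF factors. Frizzled receptors also work without LRP5/6 in planar cell polarity. The ubiquitin ligases RNF43 and ZNRF3 remove Frizzled from the cell surface. In colon epithelium the pathway maintains the stem cells of the crypt, and in HCT116 β-catenin is active downstream of these receptors.

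Promoter sequence from RefSeq (GRCh38.p14) was matched for 5 genes, FZD1, FZD4, FZD5, FZD8 and LRP5; those of FZD2, FZD3, FZD6, FZD7 and LRP6 are not shown. The 250 bases before the start that the RefSeq promoter table gives are printed, 5′ to 3′, for FZD4 and LRP5, which fell in both lines, and for FZD8, which was not called lower in either. For LRP5 that start lies inside the annotated gene span, downstream of its first base. Capitals mark matches to GGGCGG, the GC box bound by Sp1-type factors, on either strand, and in FZD8 also 1 match to TGCGCNC.

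FZD4, chr11:86955396-86955645, minus strand: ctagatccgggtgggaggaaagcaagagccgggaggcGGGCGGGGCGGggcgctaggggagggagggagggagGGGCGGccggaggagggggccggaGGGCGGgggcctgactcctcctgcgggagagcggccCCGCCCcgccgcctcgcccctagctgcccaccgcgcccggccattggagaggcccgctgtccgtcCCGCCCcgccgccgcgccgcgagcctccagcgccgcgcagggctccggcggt

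LRP5, chr11:68312341-68312590, plus strand: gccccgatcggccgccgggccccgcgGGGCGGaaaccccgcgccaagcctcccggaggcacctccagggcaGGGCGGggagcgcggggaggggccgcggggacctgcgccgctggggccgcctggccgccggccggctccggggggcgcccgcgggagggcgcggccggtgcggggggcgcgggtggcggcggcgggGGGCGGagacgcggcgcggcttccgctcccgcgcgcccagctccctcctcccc

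FZD8, chr10:35642297-35642546, minus strand: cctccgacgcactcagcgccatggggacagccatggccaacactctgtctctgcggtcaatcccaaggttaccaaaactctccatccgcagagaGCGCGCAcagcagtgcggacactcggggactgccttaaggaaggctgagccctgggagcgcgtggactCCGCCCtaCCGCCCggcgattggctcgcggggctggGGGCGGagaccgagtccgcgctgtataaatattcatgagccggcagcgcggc

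FZD4 holds 6 GC boxes in this window, of which 2 overlap, LRP5 holds 3, and FZD8 holds 3. All 5 matched promoters, FZD1 and FZD5 included, hold at least 1, against 42.6% of 35116 promoter windows of the same length. GC made up 80.8% of the bases for FZD4, 87.2% for LRP5 and 65.2% for FZD8. The metal response element, searched as TGCACNC or TGCGCNC on both strands, was matched in FZD8 alone of the 5, against 24.8% of all windows. The TCF/LEF site, searched as CTTTGAT or CTTTGAA, was matched in 0 of 5 (5.94% of all windows), and the heat shock element, searched as GAANNTTC or TTCNNGAA, in 0 of 5 (11.6%). These matches describe the letters of the windows only.

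**Figure D1:**
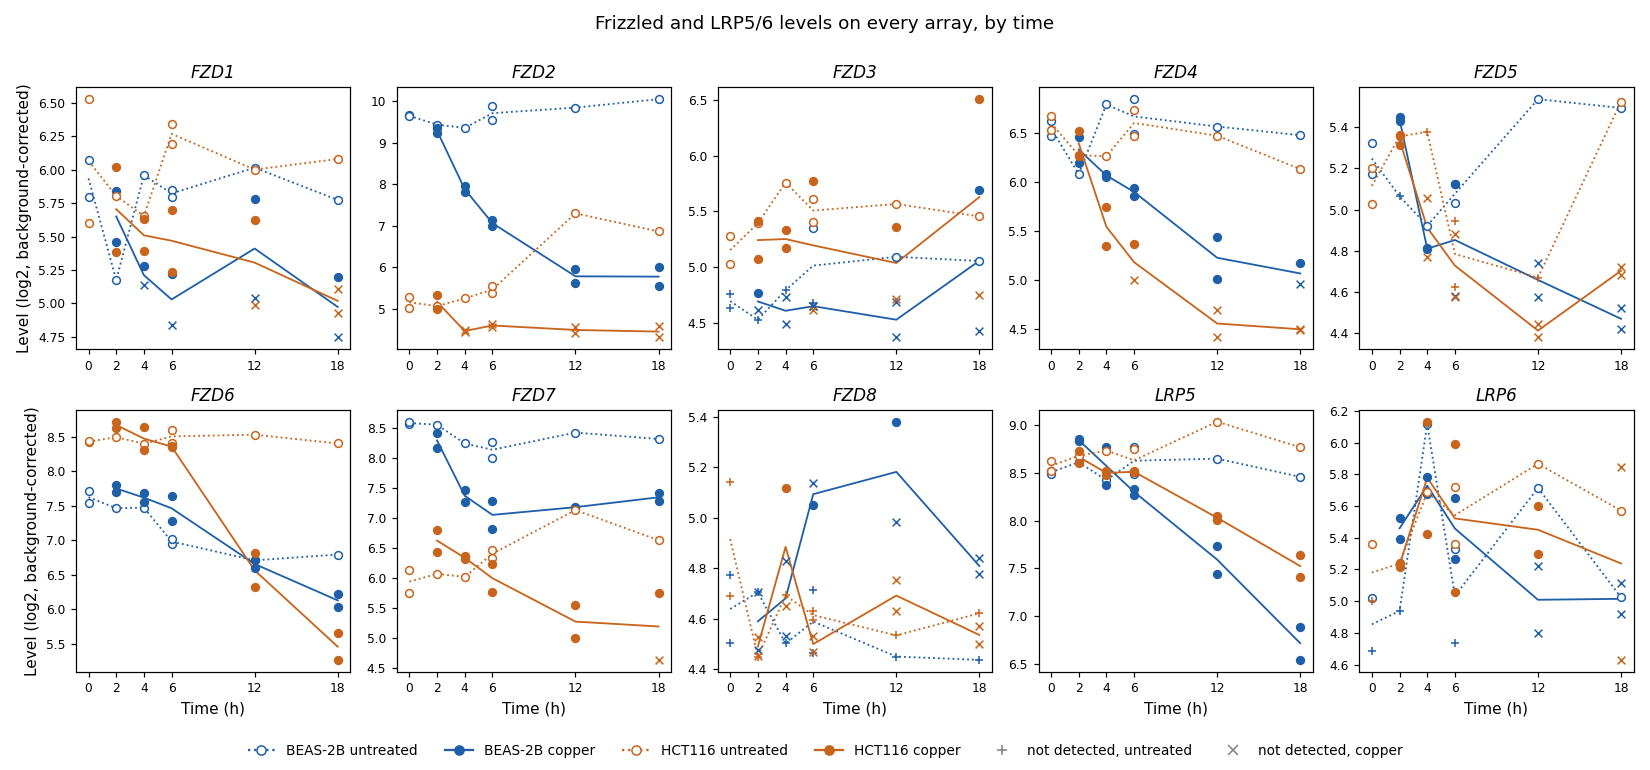
Level of each gene (log2, background-corrected and quantile-normalized; y axis, own scale in each panel) against time in hours, 1 point per array, with lines through the time means. At 12 and 18 h the copper arrays of FZD2, FZD4 and LRP5 lie below all untreated arrays in both lines, those of FZD5 and FZD7 do so in BEAS-2B, and those of FZD6 in HCT116.

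By 12 and 18 h 5 of the 9 genes other than FZD2 had fallen in both lines, and FZD6 had a more negative effect in HCT116 than in BEAS-2B. Counted in each line alone, 31.3% of all genes fell in BEAS-2B and 30.4% in HCT116. The share of all genes that fell in both was not counted. Of the 5 genes, FZD1 in BEAS-2B lost its call without single arrays. FZD1 and FZD5 in HCT116 lost theirs without the 18 h time, which drops out with its only untreated array. FZD7 in both lines rests on its brighter probe, as described under each gene. Averaged over 2 and 4 h, no tested gene passed the threshold against the untreated arrays of the same times. At 4 h alone FZD4 was lower in BEAS-2B (-0.73 ± 0.23, adjusted p = 0.039, where 8.02% of all genes fell) and FZD2 at least 1.49-fold lower in HCT116 (adjusted p = 0.0219, where 5.43% fell). FZD1, FZD4, FZD5, FZD7 and LRP5 fell late in both lines. LRP6 and FZD3 were not called in either line, and FZD8 was at or under the detection limit. Levels are compared between arrays for one probe at a time and never between genes, since probes differ in brightness. The RNA is that of whole cultures, in which fewer cells of a kind and less RNA per cell cannot be told apart.

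FZD2, a receptor linked in other tissues to both β-catenin and Wnt5a signalling, was the gene chosen for its fall. It lies at chr17:44557484-44561262 (GRCh38.p14) and has 1 probe. Its log2 level on the 8 untreated BEAS-2B arrays ran from 9.35 through a median of 9.64 to 10.05. On the copper arrays it was 9.22 and 9.35 at 2 h, 7.81 and 7.95 at 4 h, and 6.99 and 7.14 at 6 h. It was 5.95 and 5.62 at 12 h and 6.01 and 5.54 at 18 h. Every copper array from 4 h on lay below every untreated array, the time points from 2 to 12 h did not overlap one another, and 12 and 18 h overlapped. All 18 arrays detected the probe. Against the untreated array of the same time the log2 difference was -0.15 ± 0.21 (SE) at 2 h, -1.47 ± 0.21 at 4 h, -2.65 ± 0.17 at 6 h, -4.06 ± 0.21 at 12 h and -4.27 ± 0.21 at 18 h. The mean over 12 and 18 h, -4.16 ± 0.15, was the third lowest of 14678 genes, which restates the reason for its choice. With the authors' deposited normalized values, used as they stand, it was -2.98.

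In HCT116 the same probe was much dimmer. The 6 untreated arrays of 0 to 6 h ran from 5.02 to 5.55, while the single untreated arrays of 12 and 18 h read 7.30 and 6.86. This untreated rise of 1.84 ± 0.14 (SE, log2; 2 arrays against 6) passed the test (adjusted p = 1.16e-07, limma with Benjamini-Hochberg adjustment over all genes), and both late arrays lay above all 6 earlier ones. With copper, FZD2 read 5.33 and 5.00 at 2 h and was detected there. From 4 to 18 h it read between 4.32 and 4.65 and was not well above background on any of the 8 arrays. At 12 and 18 h it was therefore at least 5.07-fold lower than in the untreated arrays of those times (adjusted p = 8.56e-11, below in 4 of 4 arrays). At 6 h it was at least 1.67-fold lower than in the untreated arrays of that time (adjusted p = 0.000707, limma). "At least" means that copper arrays without detection were set to the dimmest detected signal of the array, where that was higher than their own. The distance was smaller against earlier references. Against the untreated arrays of 0 to 6 h, a reference added after the rise was seen, FZD2 was at least 1.41-fold lower (adjusted p = 1.27e-05), and against all untreated arrays of the line at least 2.16-fold lower (adjusted p = 2.36e-09). Untreated HCT116 differed from untreated BEAS-2B by -3.82 log2 units (means 5.85 and 9.67 over the times, 8 arrays each).

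FZD7, a receptor that supports intestinal stem cells in mice, lies at chr2:202033855-202038441 and has 2 probes, of which the brighter one represents the gene. In BEAS-2B the untreated arrays ran from 8.01 through 8.38 to 8.61. Copper arrays read 8.17 and 8.43 at 2 h, 7.28 and 7.48 at 4 h, and 6.83 and 7.29 at 6 h. They read 7.18 and 7.20 at 12 h and 7.42 and 7.29 at 18 h. All copper arrays from 4 h on lay below all untreated arrays, with no further fall after 6 h. The late difference was -1.11 ± 0.24 (adjusted p = 0.000738, 4 of 4 arrays below).

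In HCT116 FZD7 was lower from the start, by 2.01 ± 0.15 log2 units in untreated cells (adjusted p = 5.66e-10). Its untreated arrays ran from 5.75 through 6.24 to 7.14, and the 12 and 18 h arrays, 7.14 and 6.64, were the highest. That untreated rise was 0.77 ± 0.23 (adjusted p = 0.0289), and without the untreated 12 h array it was 0.52 (adjusted p = 0.398). Copper arrays read 6.81 and 6.45 at 2 h, 5.55 and 5.01 at 12 h, and 5.76 and 4.64 at 18 h, the last without detection. The late difference was -1.65 ± 0.24 (adjusted p = 1.29e-05, 4 of 4 below), and it was -0.88 ± 0.18 against the untreated arrays of 0 to 6 h (adjusted p = 0.000462).

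The second FZD7 probe went the other way. On BEAS-2B it read 5.52 to 6.15 untreated and 6.11 to 6.99 at 12 and 18 h of copper, a range that overlaps at its edge. On HCT116 it read 5.71 to 6.17 untreated and 6.27 to 6.67 late, with no overlap. When each probe was fitted on its own, over 19977 probes, this probe rose by 0.74 ± 0.21 in BEAS-2B (adjusted p = 0.0062) and by 0.59 ± 0.21 in HCT116 (adjusted p = 0.0258). It also showed no difference between the untreated lines past the threshold (0.06 ± 0.13, adjusted p = 0.733), where the brighter probe did. With both probes averaged, the late BEAS-2B difference of FZD7 was -0.18 (adjusted p = 0.418). The direction of FZD7 therefore rests on the brighter probe, and which transcripts each probe reads was not tested.

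**Figure D2:**
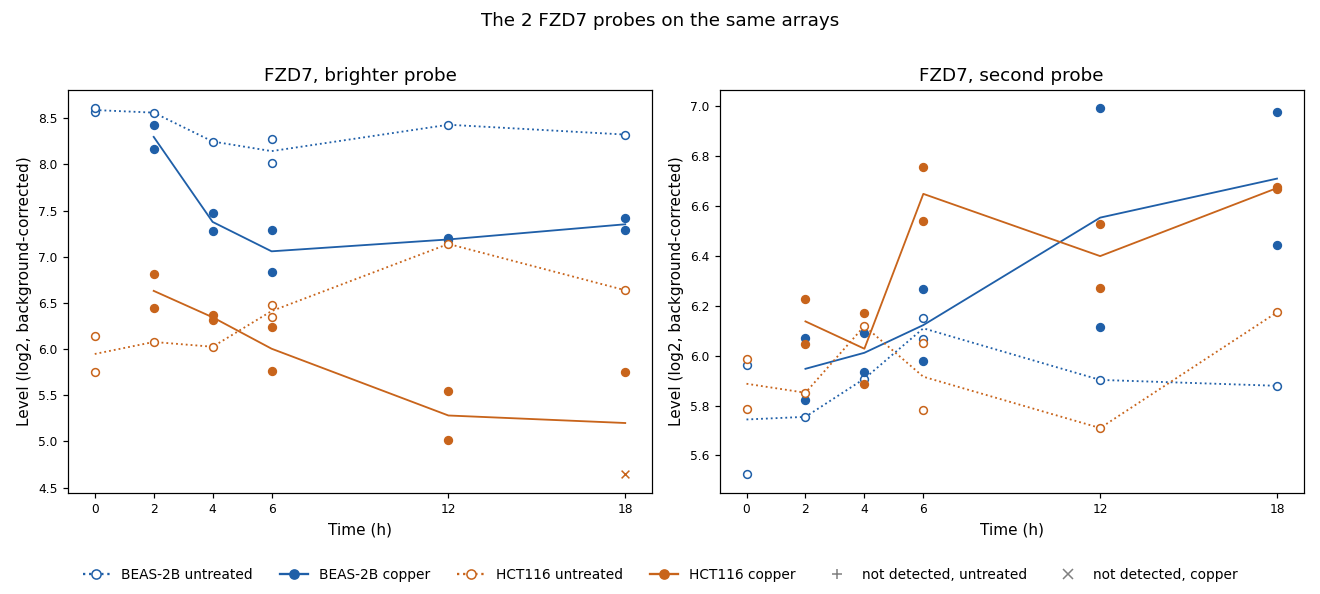
Log2 level of the brighter FZD7 probe (left) and the second probe (right) against time in hours, 1 point per array, each panel on its own scale. The brighter probe falls with copper in both lines and the second one rises late in both.

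FZD6, a receptor best known from planar cell polarity in hair and skin of mice, was the tested gene whose late effect differed between the lines with the matched reference. It lies at chr8:103298494-103332866, has 1 probe, and was detected on all 36 arrays. Untreated HCT116 arrays kept within 8.40 to 8.60, with a median of 8.43. Copper arrays read 8.62 and 8.71 at 2 h, 8.63 and 8.31 at 4 h, and 8.35 and 8.36 at 6 h. They then read 6.81 and 6.32 at 12 h and 5.65 and 5.27 at 18 h. The copper arrays lay slightly above the untreated range at 2 h and slightly below it at 6 h, and at 12 and 18 h all 4 lay far below it. The late difference was -2.45 ± 0.15 (adjusted p = 1.53e-10, 4 of 4 below), the 198th lowest of 14678 genes, and the late difference exceeded the early one by -2.58 ± 0.21 (adjusted p = 4.37e-08).

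In BEAS-2B FZD6 read 6.71 to 7.71 on untreated arrays, and the untreated level itself fell with time, from 7.38 over 0 to 6 h to 6.75 at 12 and 18 h (-0.63 ± 0.14, adjusted p = 0.0149). That step was lost without the untreated 12 h array (-0.59, adjusted p = 0.158) or the untreated 18 h array (-0.68, adjusted p = 0.101). Copper arrays read 7.69 and 7.80 at 2 h, 7.68 and 7.55 at 4 h, 7.28 and 7.64 at 6 h, 6.60 and 6.71 at 12 h, and 6.22 and 6.04 at 18 h. At 6 h both lay above both untreated arrays of that time (0.48 ± 0.17, adjusted p = 0.0381, where 13.4% of all genes rose). At 12 h copper and untreated arrays were level, and at 18 h both copper arrays lay below. The late difference of -0.36 ± 0.15 missed the threshold (adjusted p = 0.0514). It passed against all untreated arrays of the line (-0.78, adjusted p = 3.44e-06, limma). Without the untreated 12 h array the 12 h time drops out, and the difference at 18 h alone was -0.66. The late copper effect was 2.09 ± 0.21 log2 units more negative in HCT116 than in BEAS-2B (adjusted p = 5.35e-07). The same test found 1.66 units with all untreated arrays as reference (adjusted p = 7.26e-08). Untreated HCT116 stood 1.28 ± 0.09 above untreated BEAS-2B (adjusted p = 2.96e-10), and after 18 h of copper the order of the lines had turned, at 5.27 and 5.65 against 6.04 and 6.22.

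FZD4, the receptor for Norrin as well as for Wnts, needed for retinal vessels, fell late in both lines. Whether the timing of its fall differed between them was not tested. It lies at chr11:86945679-86955395 with 1 probe, and its promoter window is the one with 6 GC boxes above. BEAS-2B arrays read 6.08 to 6.85 untreated with a median of 6.53. With copper they read 6.09 and 6.05 at 4 h and 5.86 and 5.94 at 6 h. They read 5.44 and 5.01 at 12 h and 4.95 and 5.17 at 18 h. HCT116 arrays read 6.13 to 6.74 untreated with a median of 6.48. With copper they read 5.74 and 5.34 at 4 h and 4.99 and 5.37 at 6 h. At 12 and 18 h they read between 4.41 and 4.69, and none was well above background. In both lines all copper arrays from 6 h on lay below all untreated arrays. At 6 h alone the BEAS-2B difference was -0.77 ± 0.19 (adjusted p = 0.00348, limma). The late difference in BEAS-2B was -1.38 ± 0.16 (adjusted p = 8.39e-07), and HCT116 was at least 2.96-fold lower (adjusted p = 3.52e-08). The late effect exceeded the early one in BEAS-2B (-1.14 ± 0.23, adjusted p = 0.000708) and in HCT116 (-1.48 ± 0.23, adjusted p = 6.22e-05). The HCT116 step is a fitted value and not an exact size. In BEAS-2B the step was -0.65 and not called without the untreated 2 h array, where 4 h alone stood for the early effect.

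FZD5, which supports Paneth cells in the mouse intestine, and FZD1 are dimmer and rest on fewer detections. FZD5, at chr2:207762598-207769906, was detected on 7 of 8 untreated BEAS-2B arrays (4.92 to 5.54) and on 0 of 4 late copper arrays (4.42 to 4.74). It was at least 1.75-fold lower there (adjusted p = 1.26e-05), and the late effect exceeded the early one by -1.08 ± 0.20 (adjusted p = 0.000303). That step is a fitted value and not an exact size. In HCT116 it was detected on 4 of 8 untreated and 0 of 4 late copper arrays. The late difference there was -0.54 (adjusted p = 0.00334), a fitted value and not an exact size. The untreated 12 h array was not detected either. Without the untreated 18 h array, which leaves 12 h alone, the HCT116 difference was -0.26 and not called.

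FZD1, at chr7:91264433-91271326, read 5.17 to 6.07 in untreated and 4.75 to 5.78 in late copper-treated BEAS-2B, and 5.60 to 6.53 and 4.93 to 5.62 in HCT116. The groups overlap in both lines. Late differences were -0.70 ± 0.27 in BEAS-2B (adjusted p = 0.0366) and -0.88 ± 0.27 in HCT116 (adjusted p = 0.0107), with 4 of 4 copper arrays below the untreated array of their time in each. The BEAS-2B call was lost without copper 12 h replicate 2 (-0.52) or copper 18 h replicate 2 (-0.59). Leaving out the only untreated array of a time takes that time out of the comparison. The call was also lost at 18 h alone, without the untreated 12 h array (-0.80), and at 12 h alone, without the untreated 18 h array (-0.60). The HCT116 call was lost at 12 h alone, without the untreated 18 h array (-0.70). A second FZD1 probe, dimmer still, fell late in BEAS-2B (-0.65 ± 0.23, adjusted p = 0.0276) but was not called in HCT116 (-0.22 ± 0.23, adjusted p = 0.487).

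FZD3 and FZD8 were near or under the limit of detection. FZD3, a receptor of axon guidance and planar polarity at chr8:28494212-28574258, was detected on 3 of 8 untreated BEAS-2B arrays and 8 of 8 untreated HCT116 arrays, and stood 0.61 ± 0.25 higher in HCT116 (adjusted p = 0.0401). Its late copper difference was -0.28 ± 0.40 in BEAS-2B (adjusted p = 0.621) and -0.18 ± 0.40 in HCT116 (adjusted p = 0.763). At 18 h its replicates disagreed, at 4.42 and 5.69 in BEAS-2B and 4.75 and 6.51 in HCT116. FZD8, at chr10:35638247-35642296, was detected on 3 of 36 arrays, all with copper, and passed the filter only through these, so its differences are no support for a rise. In BEAS-2B it was detected on 1 of 4 late copper arrays and 0 of 8 untreated arrays. The late difference there was 0.55 (adjusted p = 0.00587), a fitted value and not an exact size. The call was lost without the untreated 12 h array, which leaves 18 h alone (0.37). In HCT116 it was not well above background in either late group.

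The 2 co-receptors differed from each other in behaviour. LRP5, whose loss or gain alters bone mass in humans, lies at chr11:68298412-68449275, and its brighter probe was detected on all 36 arrays. Untreated BEAS-2B arrays read 8.43 to 8.77 with a median of 8.51. Copper arrays read 8.84 and 8.86 at 2 h, 8.27 and 8.33 at 6 h, 7.45 and 7.74 at 12 h, and 6.89 and 6.54 at 18 h. They lay above the untreated range at 2 h and below all untreated arrays from 6 h on, and 12 and 18 h did not overlap. In HCT116 untreated arrays read 8.51 to 9.04, and copper arrays 8.60 and 8.73 at 2 h, 8.01 and 8.05 at 12 h, and 7.64 and 7.41 at 18 h. The late difference was -1.40 ± 0.13 in BEAS-2B (adjusted p = 5.08e-08) and -1.13 ± 0.13 in HCT116 (adjusted p = 8.89e-07). The late effect exceeded the early one by -1.59 ± 0.19 in BEAS-2B (adjusted p = 3.34e-06) and by -1.004 ± 0.19 in HCT116 (adjusted p = 0.000379). With both LRP5 probes averaged the HCT116 step was -0.65 (adjusted p = 0.0689). A second LRP5 probe, near background, gave -0.38 ± 0.29 and -0.45 ± 0.29, neither past the threshold (adjusted p = 0.317 and 0.226).

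LRP6, the co-receptor required for most Wnt/β-catenin signalling in the mouse embryo, lies at chr12:12116025-12267044 with 1 probe detected on 26 arrays. It read 4.69 to 6.12 on untreated and 4.80 to 5.22 on late copper-treated BEAS-2B arrays, and 5.00 to 5.87 and 4.63 to 5.85 in HCT116. The ranges overlap in both lines. The late differences were -0.36 ± 0.30 in BEAS-2B (adjusted p = 0.371) and -0.37 ± 0.30 in HCT116 (adjusted p = 0.343), with errors that leave room for a fall of the size seen for FZD1. Without copper 18 h replicate 1 the HCT116 difference was -0.68 (adjusted p = 0.0477).

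**Figure D3:**
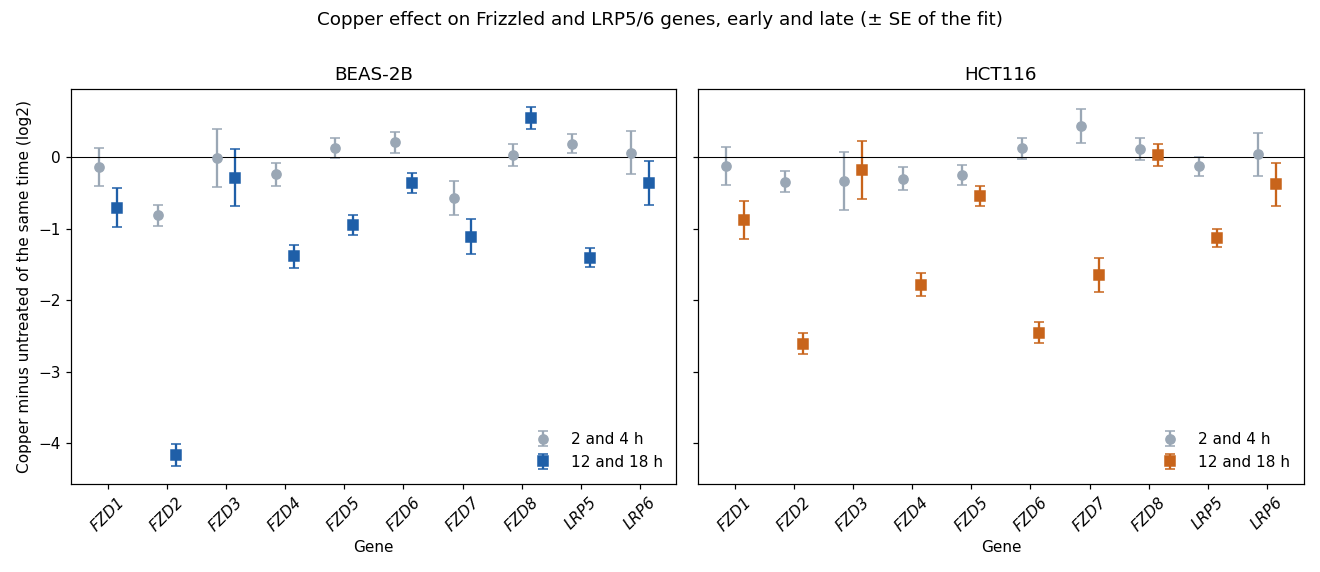
Copper minus untreated of the same time (log2, ± SE of the fit over all arrays) for each gene, as the mean over 2 and 4 h (circles) and over 12 and 18 h (squares). Early values lie near 0, the lowest being FZD2 in BEAS-2B at -0.81, and late values reach -4.16 for FZD2 in BEAS-2B. Late FZD2, FZD4, FZD5 and FZD8 in HCT116 and late FZD5 and LRP6 in BEAS-2B were undetected with copper, so their squares are fitted values and not exact sizes.

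Counted over the family, with FZD2 left out in BEAS-2B, 5 of 9 genes fell late in BEAS-2B, where 31.3% of all genes fell and 18.2% rose. The positive call of FZD8 there is not counted as a rise, since the gene entered the test only through copper arrays. In HCT116 7 of 10 fell and 0 rose late (0 also at an unadjusted p below 0.05), where 30.4% of all genes fell and 17.8% rose. FZD2, chosen for its late fall in BEAS-2B, is among these falls and is kept in all HCT116 counts and medians. FZD1, FZD4, FZD5, FZD7 and LRP5 are the 5 that fell in both, all 5 of the BEAS-2B falls and 5 of the 7 in HCT116. The share of all genes that fell in both lines was not counted. The median late difference was -0.70 over 9 genes in BEAS-2B and -1.002 over 10 in HCT116, beside -0.08 and -0.06 over all genes. At 2 and 4 h limma called 0 of 9 genes in BEAS-2B, where 8.54% of all genes fell and 7.92% rose, and 0 of 10 in HCT116, where 4.48% fell and 4.55% rose. At an unadjusted p below 0.05, FZD7 was lower early in BEAS-2B (-0.57 ± 0.24) and FZD2 in HCT116 (-0.34 ± 0.15). Against all untreated arrays of the line, FZD4 and FZD7 were called lower and FZD6 higher early in BEAS-2B, and FZD2 and FZD4 lower in HCT116. Against the untreated arrays of 0 to 6 h, FZD7 in BEAS-2B and FZD2 and FZD4 in HCT116 were still called. FZD4 (-0.32, adjusted p = 0.0603, limma) and FZD6 (0.30, adjusted p = 0.0577) in BEAS-2B were not.

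Averaged over the 5 copper times, 5 of 9 genes fell in BEAS-2B, where 30.3% of all genes fell and 18.5% rose, with FZD8 again not counted, and 7 of 10 fell and 0 rose in HCT116, against 29.1% and 17.3%. Leaving out the 18 h arrays reduced the falls to 3 and 4. The late and early effects differed for 4 of 9 genes in BEAS-2B (FZD4, FZD5, FZD6 and LRP5) beside 33.4% of all genes, and for 5 of 10 in HCT116 (FZD2, FZD4, FZD6, FZD7 and LRP5) beside 33% of all genes. Against the matched untreated arrays the late effect differed between the lines for FZD6 alone of 9, beside 29.5% of all genes. Against all untreated arrays it also differed for FZD4 (-0.49, adjusted p = 0.0228) and LRP5 (0.43, adjusted p = 0.0145). The FZD8 value of -0.47 is not counted, since that gene entered the test only through copper arrays. In untreated cells the lines differed for FZD3, FZD6, FZD7 and LRP5, 4 of 9 beside 59.5% of all genes. The LRP5 difference there was 0.19 ± 0.08 (adjusted p = 0.048) and, like that of FZD3, was lost when 1 of several single arrays was left out. Untreated levels changed with time for 1 of 9 genes in BEAS-2B, FZD6, beside 3.37% of all genes, and for 2 of 10 in HCT116, FZD2 and FZD7, beside 15.2%. The share of probes detected also fell with copper, from 41.3 to 43.2% on untreated to 36.2 to 37.9% on late copper BEAS-2B arrays and from 39.6 to 42.4% to 32.2 to 35.6% in HCT116, and its part in these counts was not tested.

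**Figure D4:**
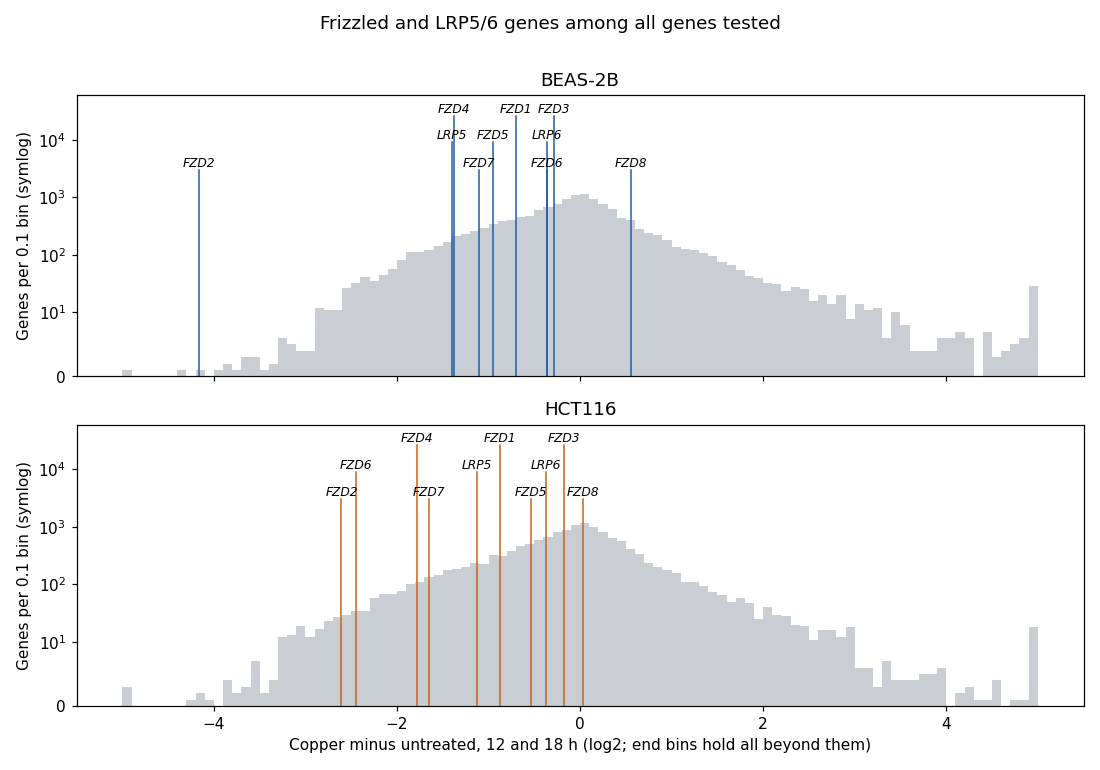
Number of genes per bin of the late copper difference (x axis, log2; y axis, symmetrical log scale) for 14678 genes in BEAS-2B (top) and HCT116 (bottom), with the 10 receptor genes marked. FZD2 in BEAS-2B lies at -4.16 in the far tail, and FZD8 in BEAS-2B, at 0.55, lies furthest above 0.

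For the pathway lists that follow, the shares of all genes are 31.3% falling and 18.2% rising late in BEAS-2B, and 30.4% and 17.8% in HCT116, and with so few genes a list a count near these shares says nothing particular about the list. Of the other Wnt receptors, 5 of 7 fell late in BEAS-2B and 5 of 7 fell and 1 rose in HCT116. FZD9 was at least 2.45-fold lower in BEAS-2B (adjusted p = 7.6e-07) and at least 1.23-fold lower in HCT116 (adjusted p = 0.00587). The kinase-like receptor ROR2, a Wnt5a receptor, fell in both lines, with log2 differences of -1.21 ± 0.25 in BEAS-2B and -1.59 ± 0.25 in HCT116 (adjusted p = 0.000408 and 2.75e-05). RYK, another Wnt5a receptor, also fell in both (-0.68 ± 0.12 and -0.76 ± 0.12, adjusted p = 0.000119 and 3.81e-05). FZD10 rose in HCT116, by 0.87 ± 0.29 (adjusted p = 0.0203).

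Different ligands were detected in the lines. WNT5A, a ligand of the β-catenin-independent branch, was detected in untreated BEAS-2B and not in HCT116, and fell late in BEAS-2B (-2.52 ± 0.12, adjusted p = 5.82e-12). WNT3A, WNT10B and WNT16 were detected in untreated HCT116 and on none of the untreated BEAS-2B arrays. In HCT116 WNT3A fell by 1.29 ± 0.22 (adjusted p = 8.2e-05) and WNT10B by 1.08 ± 0.15 (adjusted p = 6.37e-06), and WNT16 was at least 3.03-fold lower (adjusted p = 1.15e-09). In all, 2 of 12 tested ligands fell late in BEAS-2B, a lower share than the 31.3% of all genes, and 4 fell and 1 rose in HCT116, near the 30.4% and below the 17.8% of all genes.

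Of the receptor turnover genes, 1 of 8 fell in BEAS-2B and 3 of 8 in HCT116, where 31.3% and 30.4% of all genes fell. ZNRF3 fell in both, by -0.98 ± 0.21 log2 units in BEAS-2B (adjusted p = 0.000544) and -1.72 ± 0.21 in HCT116 (adjusted p = 1.3e-06). RNF43 was not well above background on any untreated BEAS-2B array and was at least 3.75-fold lower late in HCT116 (adjusted p = 1.35e-09). KREMEN2, which with DKK proteins removes LRP6 from the surface, fell in HCT116 by 1.64 ± 0.33 (adjusted p = 0.000365). The secreted LRP5/6 antagonist DKK1 fell in BEAS-2B (-1.34 ± 0.12, adjusted p = 2.76e-08) and in HCT116 (-3.57 ± 0.12, adjusted p = 9.4e-14), and in all 2 of 5 antagonists fell in BEAS-2B, and 1 fell and 1 rose in HCT116.

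Of the Wnt target genes 4 of 16 rose and 4 fell late in BEAS-2B, and in HCT116 10 of 16 fell and the other 6 were not called. SOX4 rose late by 2.54 ± 0.15 in BEAS-2B (adjusted p = 8.21e-11) and fell by 1.99 ± 0.15 in HCT116 (adjusted p = 2.08e-09), a difference between lines of -4.53 ± 0.21 (adjusted p = 2.03e-11). AXIN2, a negative feedback scaffold of the pathway, rose late by 2.25 ± 0.17 in BEAS-2B (adjusted p = 2.8e-09). In HCT116 it fell over the average of all times (-0.86 ± 0.10, adjusted p = 1.37e-06) but its late difference was -0.09 ± 0.17 (adjusted p = 0.727). MYC fell in both lines (-0.62 ± 0.11 in BEAS-2B and -3.26 ± 0.11 in HCT116, adjusted p = 0.000136 and 1.17e-13). The median target difference was 0.07 in BEAS-2B and -0.63 in HCT116, beside -0.08 and -0.06 over all genes.

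Downstream genes fell and rose. In the cytoplasm 4 of 20 fell and 5 rose late in BEAS-2B, beside 31.3% and 18.2% of all genes, and 7 fell and 4 rose in HCT116, beside 30.4% and 17.8%. In HCT116 FRAT2, an inhibitor of GSK3, was at least 8.81-fold lower (adjusted p = 6.99e-12) and NKD2, a Dishevelled antagonist, fell by 2.12 ± 0.09 (adjusted p = 2.07e-12). Among nuclear components 4 of 13 fell and 2 rose in BEAS-2B, and 6 fell and 1 rose in HCT116. BCL9, a β-catenin co-activator, fell in both (-1.83 ± 0.19 in BEAS-2B and -1.73 ± 0.19 in HCT116, adjusted p = 1.57e-07 and 3.51e-07). The co-repressor TLE1 rose by 0.86 ± 0.20 in BEAS-2B (adjusted p = 0.00114) and fell by 1.88 ± 0.20 in HCT116 (adjusted p = 2.26e-07), and the lines differed by -2.74 ± 0.28 (adjusted p = 6.98e-07). Of the planar cell polarity genes 3 of 9 fell in BEAS-2B, and 3 fell and 2 rose in HCT116, where 31.3% and 30.4% of all genes fell. CELSR2, a cadherin of that pathway, fell in both lines (-1.09 ± 0.20 in BEAS-2B and -1.61 ± 0.20 in HCT116, adjusted p = 0.000141 and 1.87e-06). Of the ligand processing genes 2 of 4 fell in BEAS-2B, WLS, the carrier of Wnt proteins to the surface, by 0.78 ± 0.11 (adjusted p = 1.26e-05) and TRABD2A to a level at least 1.42-fold lower (adjusted p = 0.0022), and 1 of 4 fell in HCT116. The lists were drawn up with earlier results of these arrays known.

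**Figure D5:**
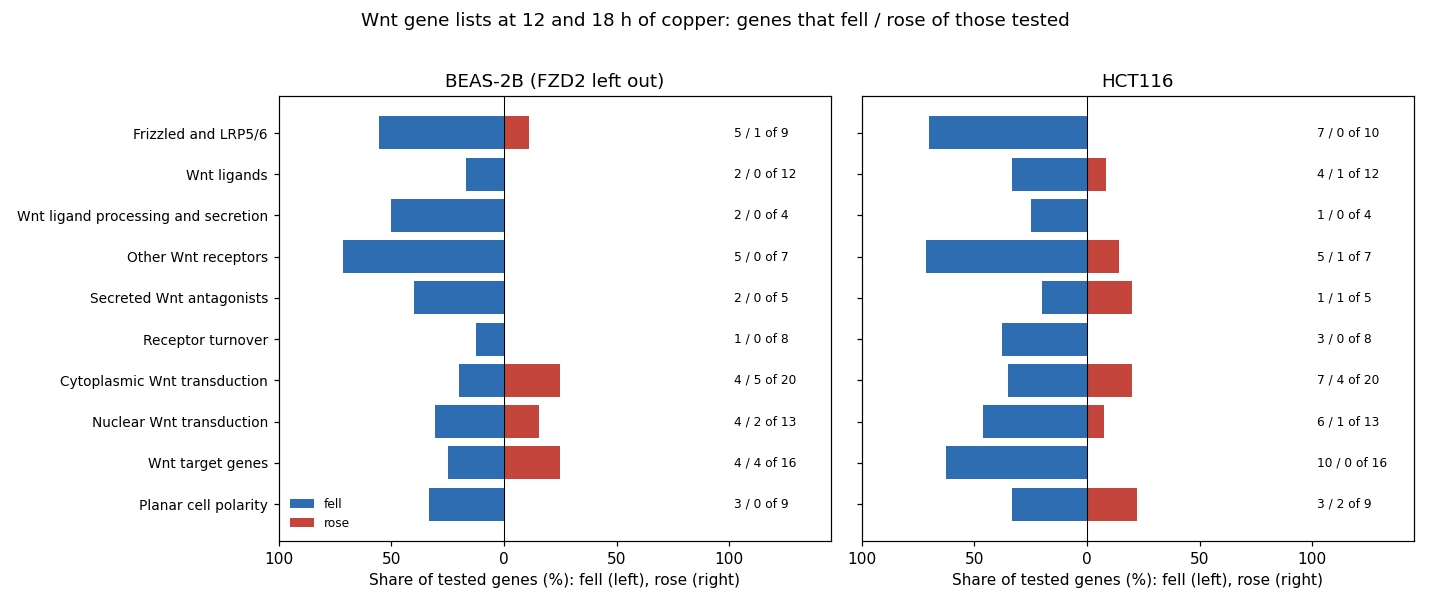
Share of tested genes of each Wnt list that fell (left of 0) or rose (right of 0) at 12 and 18 h of copper, in percent, with the counts (fell / rose of tested) at the right of each row. The 1 positive call in the top row for BEAS-2B is FZD8, which the text does not count as a rise, and target genes fell in 10 of 16 cases in HCT116 against 4 of 16 in BEAS-2B.

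The genes whose pattern was most like that of FZD2, by Pearson's r over the 22 group means with each line set to its own untreated mean, were DET1 (0.98), BUB1 (0.96), STX5 (0.96), TMEM218 (0.96) and TCFL5 (0.96). BUB1 is a kinase of the mitotic spindle checkpoint, and STX5 is a membrane fusion protein of the Golgi. Their late differences were -1.54, -1.56, -1.58, -1.77 and -2.19 in BEAS-2B and -1.02, -1.12, -0.97, -1.21 and -1.23 in HCT116, all smaller in size than those of FZD2. Within the receptor family r with FZD2 was 0.83 for FZD7, 0.76 for LRP5, 0.67 for FZD1, 0.66 for FZD4 and 0.60 for FZD5. It was 0.28 for FZD3, 0.28 for FZD6, 0.18 for LRP6 and -0.69 for FZD8. The 22 points share arrays and untreated references, so these values are a description. Of the 10 receptor genes 6 span under 10000 bases, FZD1, FZD2, FZD4, FZD5, FZD7 and FZD8, and these include 4 of the 5 tested genes that fell in both lines. Over all genes of that span 27.7% fell late in BEAS-2B and 25.9% in HCT116, against 32.6% and 32.0% of longer genes.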

How the data were processed

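RNA from copper-treated and untreated BEAS-2B and HCT116 cells was measured on Illumina bead arrays. Per the submitters' processing notes, the authors used BeadStudio, with its version not given in the sources used here. One deposited table, called non-normalized per the file headers, holds a signal and a detection p-value for each of 43960 probes. Its signals run from 5.89 to 14.5, which is a log2 scale by the values. Array means of 7.31 to 7.33 lie so close together that an earlier scaling by the authors is possible, and any background subtraction is not stated. A second deposited table of log2 values has equal quantiles on all arrays and differs from the first by at most 0.202. Values were returned to the linear scale, background-corrected and quantile-normalized with limma's neqc (limma 3.58.1, R 4.3.3, offset 16). The array annotation names 29511 probes by 1 gene symbol, none by several, and leaves 14449 without. RefSeq (GRCh38.p14) holds 29474 of the named probes by gene number, and 0 symbols changed. Genes detected (p below 0.01) on at least 2 arrays were kept, each by its brightest probe, which left 14678. One limma model over all 36 arrays and 22 groups (14 residual degrees of freedom) gave each contrast, copper minus untreated of the same time. "Early" is 2 and 4 h, "late" 12 and 18 h. P-values were adjusted by Benjamini-Hochberg over all genes, and a call is an adjusted p below 0.05. The number of arrays limits the precision, since matched untreated groups hold 1 array at 2, 4, 12 and 18 h. Quantile normalization makes every difference relative to the other genes of the array. The fit was tested on simulated data. Alternatives were the authors' deposited normalized values, no background correction, other filters, the mean over probes, other untreated references, a replicate block, array weights, and leaving out arrays or times. Leaving out the only untreated array of a time also took the copper arrays of that time out of the copper contrasts. The named genes are the 10 receptors with every probe, up to 3 called genes of each of 9 Wnt lists and line with the largest average copper effect, and the 5 genes most like FZD2. Of 113 listed genes 86 were tested. The 10 genes, the lists and the tests were chosen with earlier results of these data known.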

Additional observations from a re-analysis of the deposited data

Results flagged for a closer look

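The late copper effect on FZD6 was 2.09 log2 units more negative in HCT116 than in BEAS-2B (-2.09, adjusted p = 5.35e-07, limma), and FZD6 alone of 9 tested receptor genes differed between the lines against the untreated arrays of the same times. Against all untreated arrays of the line FZD4 (-0.49, adjusted p = 0.0228) and LRP5 (0.43, adjusted p = 0.0145) differed too. The FZD8 value of -0.47 is not counted, since that gene entered the test only through copper arrays. FZD2 was left out of that comparison because it was chosen by one of its sides.

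The late copper effect (12 and 18 h) differed from the early one (2 and 4 h) in both lines for FZD4, by -1.14 in BEAS-2B and -1.48 in HCT116, for FZD6, by -0.57 and -2.58, and for LRP5, by -1.59 and -1.004. It differed in BEAS-2B for FZD5, by -1.08. It differed in HCT116 for FZD2, by -2.27, and for FZD7, by -2.08. FZD2 was not well above background on the late and 4 h copper arrays of HCT116, so its step is a fitted value and not an exact size. The same holds for the steps of FZD4 in HCT116 and FZD5 in BEAS-2B, undetected on the late copper arrays. For FZD2 and FZD7 in HCT116 the untreated arrays of 12 and 18 h also stood above the earlier ones. With a shared untreated reference for both stages the reference cancels, leaving late minus early copper arrays. That comparison does not correct for time in culture. It gave -0.34 (adjusted p = 0.0253, limma) for FZD2 and -1.25 (adjusted p = 2.99e-05) for FZD7. The FZD6 step in BEAS-2B (adjusted p = 0.0408, limma) was lost with the authors' normalized values (-0.34, adjusted p = 0.0532). It was lost too without the untreated 18 h array, which leaves 12 h alone as the late effect (-0.27). It was also lost with no detection filter (adjusted p = 0.0505) and without each of 6 other single arrays. Among these, the untreated 2 h and 4 h arrays take their time out of the early effect. Late minus early copper arrays alone, uncorrected for the untreated fall of FZD6 with time, gave -1.29 (adjusted p = 5.36e-08, limma). With both LRP5 probes averaged the LRP5 step in HCT116 was -0.65 (adjusted p = 0.0689).

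Groups held 1 or 2 arrays, so single arrays could not be tested for standing apart from their group.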

How the results depend on the processing

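Counts of called receptor genes moved as follows, and the cause was not tested beyond the change of arrays or genes that each alternative makes. Averaged over all times, falls in BEAS-2B dropped from 5 to 3, and those in HCT116 from 7 to 4, without the 18 h time point, and the 1 positive call in BEAS-2B, FZD8, became 0 without the 12 h time point. Under the stricter filter, with detection on at least 18 of the 36 arrays, that call and the late one in BEAS-2B were 0, because FZD8 was then not tested. Early falls in BEAS-2B went from 0 to 1 with the authors' normalized values, with no background correction, with array weights and against the untreated arrays of 0 to 6 h. Against all untreated arrays they were 2, with 1 rise. Early falls in HCT116 went from 0 to 2 against either of these references. Both references also gave 1 rise in the late minus early step of BEAS-2B, where each reference cancels and only copper arrays are compared. They gave 1 higher and 3 lower late effects in HCT116 than in BEAS-2B, where the matched reference gave 0 and 1. FZD8, which entered the test only through copper arrays, is that rise and 1 of the 3. Genes higher in untreated HCT116 went from 3 to 1 with no detection filter, and untreated rises in HCT116 from 2 to 1 when all probes of a gene were averaged. The average FZD6 effect in BEAS-2B, 0.04, turned to -0.26 against the untreated arrays of 0 to 6 h (adjusted p = 0.0233, limma). That reference and the fit of each probe on its own were chosen after seeing the data.

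With 1 array left out at a time, average falls ranged from 3 to 5 and rises from 0 to 1 in BEAS-2B, and falls from 4 to 7 in HCT116. Late falls ranged from 4 to 6 and from 5 to 8, and late rises in BEAS-2B from 0 to 1. Early falls ranged from 0 to 1 in both lines. Late minus early falls ranged from 2 to 4 in BEAS-2B, with 0 to 1 rises, and were 5 throughout in HCT116. Line differences ranged from 1 to 2 lower and 0 to 1 higher late, and from 1 to 3 higher in untreated cells. Untreated steps ranged from 0 to 1 falls in BEAS-2B and 1 to 2 rises in HCT116. For single genes, 1176 of these results kept direction and side of the threshold, 46 lost a call, 9 gained one, 9 values without a test moved and 0 reversed.

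Replicate numbers did not pair the arrays, since correlations of replicate differences between time points ran between -0.03 and 0.05 for BEAS-2B, and HCT116 gave -0.04 to 0.03. With the replicate block BEAS-2B had 5 late falls and 1 rise, and 4 falls on average, HCT116 had 7 late falls, and 2 genes were higher in untreated HCT116. FZD1 in BEAS-2B (-0.64, adjusted p = 0.0845) and FZD3 between untreated lines (0.59, adjusted p = 0.0612) were then not called, and FZD6 in BEAS-2B was (-0.39, adjusted p = 0.0407).

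The single untreated arrays at 12 and 18 h limit the late effects, since each stands alone as the reference of its time. With such an array left out, the counts above rest on the other times only. Probes near background (FZD1, FZD3, FZD5, FZD8, LRP6) give compressed differences.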
